A study of Mus musculus with 6 samples.

Results

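Fatty acid activation and beta-oxidation is described here through 32 genes, measured in mammary stroma of mice that lack Rarb, the gene of the beta form of the retinoic acid receptors. The genes were chosen by name, as enzymes, carriers and regulators of this pathway. A gene entered through probe sets whose deposited gene symbol was exactly its name, or the older name Dci for Eci1 and Hadhsc for Hadh, and its brightest probe set on average represents it. All 32 of 32 were found, among 20519 named genes, with 58 probe sets, and none of the 32 representative probe sets had a mean log2 value under 6.

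The tissue was labelled as the cleared fat pad, the fatty bed of the mammary gland without its epithelium, at 4 weeks of age. There were 3 arrays of Rarb -/- mice (Rarb-null) and 3 of their Rarb +/+ littermates (wild type). The same note on ErbB2 stands on the labels of both genotypes without saying what the mice carried. Strain, sex, the deleted part of Rarb and the number of mice behind an array are not given in the sources used here. P-values therefore measure the spread between these arrays. Values are deposited log2 RMA signals, in which a step of 1 means a 2-fold change. Differences are Rarb-null minus wild type, and errors are SD over 3 arrays.

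Long-chain fatty acids are joined to coenzyme A by acyl-CoA synthetases, passed into mitochondria by the carnitine shuttle, and shortened there by repeated rounds of dehydrogenation, hydration, a further dehydrogenation and thiolysis. Electrons from the first step reach the respiratory chain through the electron transfer flavoprotein, and a separate set of enzymes shortens very long chains in peroxisomes. White fat mostly stores fatty acids, whereas brown fat burns them to make heat.

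Of 11 white fat markers, 10 read at least 9.81 log2 on every array, while the probe set of Plin1, a lipid droplet coat protein, read from 5.85 to 6.29. The adipokine gene Adipoq read 14.38, 14.52 and 14.39 on Rarb-null arrays, against 14.62, 14.35 and 14.62 on wild-type arrays. All 19 epithelial markers read above 6 log2 on every array, although the pads are labelled as cleared. Epcam, an adhesion molecule of epithelia, read 13.46, 13.46 and 13.30 on Rarb-null arrays, against 12.85, 13.61 and 12.71 on wild-type arrays. Of the 19 epithelial markers, 17 had a higher Rarb-null mean, but 10 were highest on wild-type replicate 2. For the 19, median deviations from gene means were 0.23, 0.34 and 0.01 log2 on Rarb-null arrays, against -0.14, 0.52 and -0.61 on wild-type arrays. Of the 11 white fat markers, 9 had a lower Rarb-null mean. The part of epithelial content in the values of the 32 genes was not tested. The 1 Rarb probe set read 6.50, 6.61 and 7.41 on Rarb-null arrays, against 6.95, 6.01 and 6.65 on wild-type arrays, and since neither the deleted part nor the probe position is known here, it does not check the genotype labels. Markers of other cells varied between arrays of the same genotype. The median deviation of 20 cell cycle genes from their own means was 1.44, 1.39 and -1.55 log2 on Rarb-null replicates 1 to 3, against -1.19, 1.44 and -1.36 log2 on wild-type replicates 1 to 3. For 19 skeletal muscle genes it was -0.63, -0.56 and 0.59 on Rarb-null arrays, against -0.52, 1.75 and -0.48 on wild-type arrays. In such bulk tissue, fewer cells of a type and less RNA per cell cannot be told apart.

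Most of the 32 genes had a higher mean on Rarb-null arrays, but 1 array carried most of that. The mean was higher for 24 genes and lower for 8, with a median difference of 0.23 log2, while 47.1% of all genes had a higher mean and their median difference was -0.01 log2. Without Rarb-null replicate 3, 15 of the 32 were higher (42% of all genes) and the median difference was -0.02 log2 (-0.03 over all genes). Without wild-type replicate 2, 20 were higher (45.6% of all genes) and the median was 0.09 log2 (-0.02 over all genes). No gene of the set passed: in limma, 0 of 32 had an adjusted p under 0.05, as had 0 of 45037 probe sets (0.0%), and the adjusted p of the 32 ran from 0.908 to 0.999. At an unadjusted p under 0.05 there were 4 of 32 (Acsm3, Acsl3, Ehhadh and Acsl5), all higher, where 5.22% of all probe sets were called in either direction, 1.9% of all genes were called higher and 3.41% lower. In the authors' deposited table, 3 of the 32 representative probe sets had a p-value under 0.05, as had 5.44% of all probe sets.

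**Figure D1:**
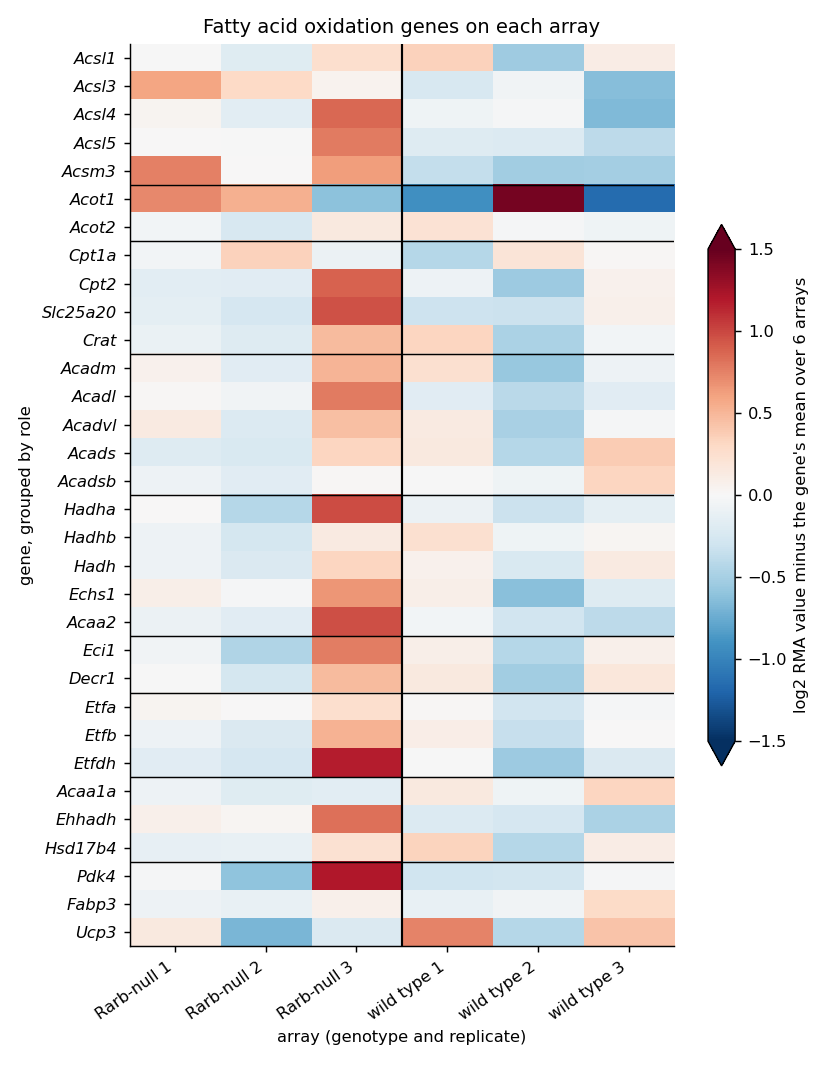
Each row is 1 of the 32 genes, grouped by role, and each column 1 array, with Rarb-null replicates left of wild-type replicates. Colour is the log2 RMA value minus the gene's mean over 6 arrays. Rarb-null replicate 3 was the highest array for 19 genes and wild-type replicate 2 the lowest for 16.

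Rarb-null replicate 3 was the highest of the 6 arrays for 19 of 32 genes, where 22.7% of all genes peaked on that array. Wild-type replicate 2 was the lowest for 16 of 32, where 15.9% of all genes had their minimum there. Both held for 12 of the genes, and for 5.41% of all genes. Rarb-null replicates 1 and 2 lay within the wild-type range for 15 of the 32, and the share over all genes was not counted. The differences of these genes also had larger standard errors, which follow the spread between arrays. The median standard error was 0.23 log2 over the 32 and 0.14 log2 over all genes. A 2-fold difference in both directions lay outside the 95% interval for 17 of 32 genes and for 92.7% of all genes.

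The same array stood out in brown fat markers. Of 18 such markers, all measured, 14 were highest on Rarb-null replicate 3, and their median deviation was -0.17, -0.86 and 1.21 log2 on Rarb-null arrays, against 0.06, -0.74 and 0.18 log2 on wild-type arrays. Ucp1, the uncoupling protein gene that defines brown fat, read 8.64, 6.11 and 13.28 on Rarb-null arrays, against 10.37, 7.29 and 9.49 on wild-type arrays. The summed linear signal of the 18 markers ran from 4601 to 31978 on Rarb-null arrays and from 4684 to 10296 on wild-type arrays, and none of the markers was without a value. Of the 18, Fabp3 also belongs to the 32 genes. Of 11 white fat markers, 0 were highest on Rarb-null replicate 3 and 7 were lowest on wild-type replicate 2, with a summed signal from 138083 to 144552 on Rarb-null and from 131671 to 170169 on wild-type arrays. The part of brown fat, white fat or muscle content in the values of the 32 genes was not tested.

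**Figure D2:**
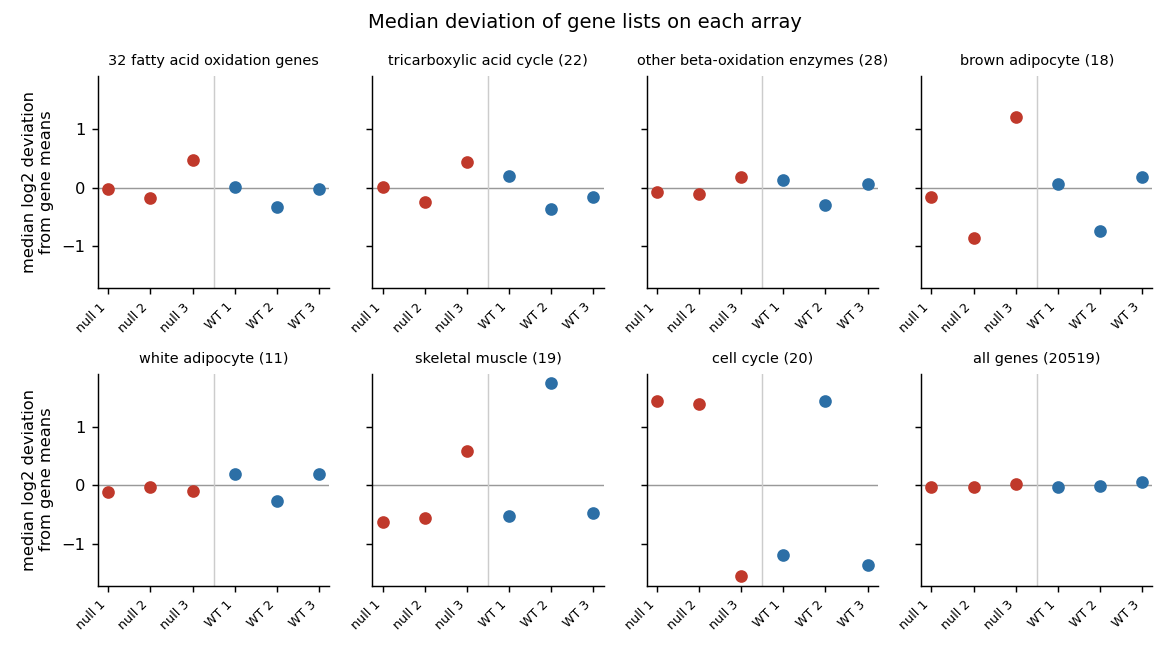
Each panel shows, for a list of genes (number in brackets), the median over genes of the log2 RMA value minus the gene's own mean, for Rarb-null arrays (null, red) and wild-type arrays (WT, blue). The 32 fatty acid oxidation genes and the 22 genes of the tricarboxylic acid cycle list have their highest median on Rarb-null replicate 3, as have brown fat markers. That list includes Pdha1, Pdhb, Dlat and Pcx, which act on pyruvate before the cycle. Cell cycle genes are lowest on Rarb-null replicate 3.

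The acyl-CoA synthetases activate fatty acids. All 5 averaged higher in Rarb-null, and for 3 of 5 the genotypes did not overlap. Over all 32 genes, 5 did not overlap with Rarb-null higher and 1 with Rarb-null lower, where 4.01% and 6.59% of all genes did so. Acsm3, a synthetase of medium-chain fatty acids, read 8.84, 8.09 and 8.70 on Rarb-null arrays, against 7.72, 7.56 and 7.58 on wild-type arrays. Every Rarb-null array was above every wild-type array. The difference was 0.93 log2 (SE 0.20, adjusted p = 0.908 in limma), or 1.90-fold, and it was 0.85 log2 without Rarb-null replicate 3. Acsm3 had 1 probe set.

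Acsl3, a long-chain synthetase associated with lipid droplets, read 10.10, 9.80 and 9.56 on Rarb-null arrays, against 9.27, 9.45 and 8.87 on wild-type arrays. The groups did not overlap, and the Rarb-null array with the lowest value was replicate 3, the opposite of most other genes of the set. The difference was 0.62 log2 (SE 0.20, adjusted p = 0.908 in limma), and 0.75 log2 without that array. The 2 other probe sets of Acsl3 differed by 0.43 and 0.10 log2.

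Acsl5, a synthetase found on mitochondria and the endoplasmic reticulum, read 12.13, 12.12 and 12.90 on Rarb-null arrays, against 11.94, 11.92 and 11.73 on wild-type arrays. The groups did not overlap, but replicates 1 and 2 of Rarb-null lay close above the wild-type values. The difference of 0.52 log2 (SE 0.22) was 0.26 log2 without Rarb-null replicate 3. Acsl4, which prefers arachidonic acid, read 10.25, 10.04 and 11.07 on Rarb-null arrays, against 10.14, 10.18 and 9.55 on wild-type arrays. The genotypes overlapped, and the difference of 0.50 log2 was 0.19 log2 without Rarb-null replicate 3. A dimmer probe set of Acsl4 differed by 1.01 log2 (SE 0.37, adjusted p = 0.908 in limma), with 7.43, 7.23 and 8.46 on Rarb-null arrays and 7.28, 6.48 and 6.33 on wild-type arrays, and these overlapped too.

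Acsl1, the main long-chain synthetase of fat cells, did not separate the genotypes. It read 13.62, 13.44 and 13.87 on Rarb-null arrays, against 13.97, 13.09 and 13.73 on wild-type arrays. The highest and the lowest array were both wild type. The difference was 0.05 log2 with a 95% interval from -0.51 to 0.61.

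**Figure D3:**
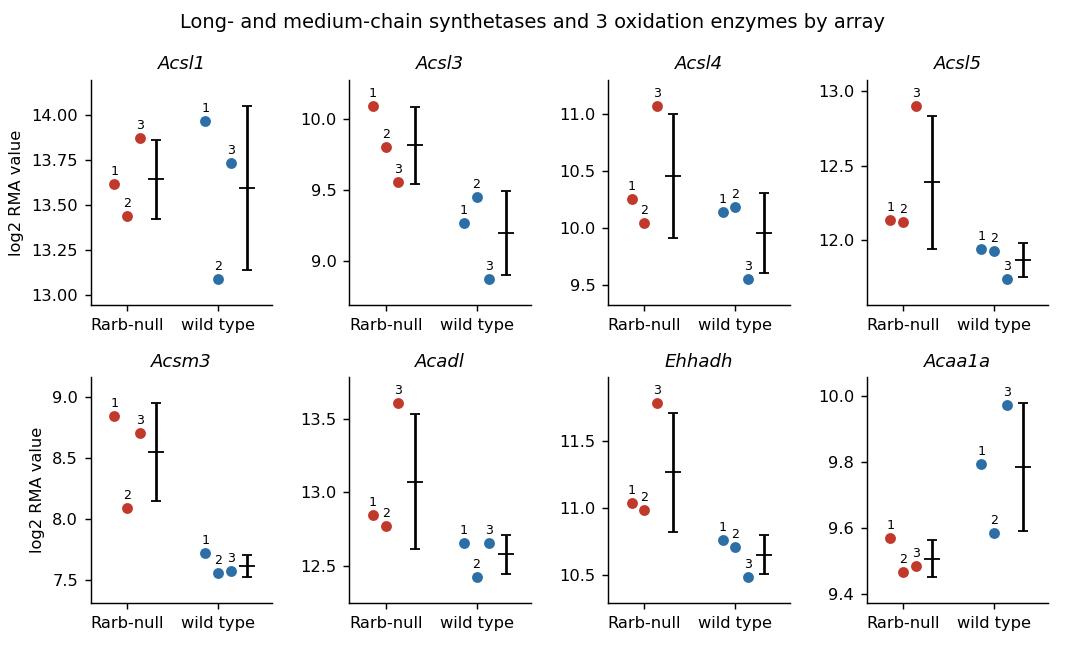
Points are log2 RMA values of single arrays, numbered by replicate, for 5 synthetase genes and for Acadl, Ehhadh and Acaa1a, with mean and SD (n = 3 each) as bars beside them. Rarb-null (red) and wild type (blue) do not overlap for Acsl3, Acsl5, Acsm3, Acadl and Ehhadh, where Rarb-null is higher, or for Acaa1a, where it is lower.

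Acyl-CoA thioesterases, which reverse activation, gave unlike patterns in neighbouring genes. Acot1, the cytosolic enzyme, read 10.76, 10.57 and 9.42 on Rarb-null arrays, against 9.13, 11.48 and 8.89 on wild-type arrays. Its 3 high arrays, Rarb-null replicates 1 and 2 and wild-type replicate 2, were the 3 arrays on which cell cycle genes were high. The difference of 0.42 log2 had a 95% interval from -1.23 to 2.07, the widest of the 32, and the part of cell cycle genes in it was not tested. Acot2, the mitochondrial enzyme, read 9.81, 9.62 and 9.99 on Rarb-null arrays, against 10.06, 9.84 and 9.79 on wild-type arrays, with little spread in either genotype. A probe set that names both Acot1 and Acot2 read 10.37, 10.32 and 9.24 on Rarb-null arrays, against 9.01, 10.63 and 8.36 on wild-type arrays, and had the same 3 high arrays as Acot1.

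All 4 carnitine shuttle genes had a higher Rarb-null mean, and 3 of 4 were highest on Rarb-null replicate 3. Slc25a20, the carrier that exchanges acylcarnitine for carnitine across the inner membrane, read 11.65, 11.54 and 12.76 on Rarb-null arrays, against 11.49, 11.48 and 11.88 on wild-type arrays. Replicate 3 alone was above the wild-type range, and the difference of 0.37 log2 (SE 0.32) was -0.02 log2 without it. A second probe set of Slc25a20 differed by 0.62 log2 (SE 0.38) and overlapped. It read 10.69, 10.64 and 12.11 on Rarb-null arrays, against 10.60, 10.31 and 10.69 on wild-type arrays. Cpt2, which rebuilds acyl-CoA inside the mitochondrion, read 11.34, 11.32 and 12.38 on Rarb-null arrays, against 11.41, 10.94 and 11.56 on wild-type arrays, and its difference was 0.37 log2 with replicate 3 and 0.02 log2 without it. A dim second probe set of Cpt2 differed by -0.10 log2. Crat, which handles short acyl groups, differed by 0.12 log2 and overlapped.

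Cpt1a, the rate-limiting entry enzyme in liver and other tissues, did not share this pattern. It read 10.14, 10.53 and 10.09 on Rarb-null arrays, against 9.76, 10.37 and 10.20 on wild-type arrays. The genotypes overlapped, the difference was 0.15 log2 (95% interval -0.31 to 0.61), and Rarb-null replicate 3 was the lowest of its group. Both dimmer probe sets of Cpt1a had the opposite sign, at -0.34 and -0.50 log2, so the direction depends on the probe set. Cpt1b, the muscle and brown fat form that is not 1 of the 32, read 6.81, 6.27 and 9.41 on Rarb-null arrays, against 7.14, 6.48 and 7.02 on wild-type arrays. It was singled out after its values were seen, and only Rarb-null replicate 3 was above the wild-type range.

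Acyl-CoA dehydrogenases carry out the first step of each round on chains of different length. Acadl, the long-chain enzyme, read 12.84, 12.77 and 13.60 on Rarb-null arrays, against 12.66, 12.42 and 12.65 on wild-type arrays. The groups did not overlap, at a difference of 0.50 log2 (SE 0.23, adjusted p = 0.908 in limma), which was 0.23 log2 without Rarb-null replicate 3. Acadm, the medium-chain enzyme, read 13.60, 13.36 and 14.05 on Rarb-null arrays, against 13.77, 12.97 and 13.46 on wild-type arrays, and overlapped. Its difference was 0.27 log2, or 0.08 log2 without Rarb-null replicate 3. Acadvl, for very long chains, averaged 13.48 ± 0.33 in Rarb-null and 13.23 ± 0.33 in wild type. Acads and Acadsb, for short and branched short chains, had lower Rarb-null means, by -0.07 and -0.16 log2, and both overlapped.

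The next steps of mitochondrial oxidation include the trifunctional protein, whose alpha and beta subunits are encoded by Hadha and Hadhb. Both genes start in opposite directions from the same stretch of chromosome 5, and RefSeq places their start sites 273 bases apart on GRCm38.p6. The following 228 bases, chr5:30155003-30155230 on the strand of Hadhb, lie within the 250 bases upstream of both genes and are shown because both subunits share them:

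Hadha and Hadhb shared upstream stretch: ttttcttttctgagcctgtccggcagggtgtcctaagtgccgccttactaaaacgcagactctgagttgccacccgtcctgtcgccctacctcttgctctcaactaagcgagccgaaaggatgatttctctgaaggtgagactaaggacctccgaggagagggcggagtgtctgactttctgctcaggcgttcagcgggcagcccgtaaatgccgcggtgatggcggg

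The representative probe sets of the pair did not share a pattern. Hadha read 8.81, 8.37 and 9.78 on Rarb-null arrays, against 8.71, 8.47 and 8.65 on wild-type arrays, with only Rarb-null replicate 3 well above the rest. Hadhb read 13.43, 13.24 and 13.63 on Rarb-null arrays, against 13.73, 13.43 and 13.53 on wild-type arrays. It differed by -0.14 log2 (95% interval -0.47 to 0.20). A further probe set names Hadhb together with a provisional locus and so was outside the selection. It read 13.46, 13.43 and 14.15 on Rarb-null arrays, against 13.57, 12.85 and 13.10 on wild-type arrays, and was highest on Rarb-null replicate 3 as Hadha was.

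Of the other 3 genes of the hydratase, dehydrogenase and thiolase steps, all had a higher Rarb-null mean and none passed. Echs1, the short-chain enoyl-CoA hydratase, read 12.88, 12.77 and 13.46 on Rarb-null arrays, against 12.88, 12.17 and 12.60 on wild-type arrays. The overlap came from wild-type replicate 1 alone, and the difference was 0.48 log2 (SE 0.24), or 0.27 log2 without Rarb-null replicate 3. Acaa2, the mitochondrial thiolase, averaged 11.89 ± 0.63 in Rarb-null and 11.42 ± 0.18 in wild type, and 2 further probe sets of Acaa2 also had positive differences, of 0.44 and 0.56 log2. The difference of 0.47 log2 in the representative probe set of Acaa2 was 0.11 log2 without Rarb-null replicate 3. Hadh, the short-chain hydroxyacyl dehydrogenase, averaged 14.32 ± 0.28 in Rarb-null and 14.30 ± 0.19 in wild type. Further probe sets of Hadh differed by 0.25 and -0.13 log2.

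The auxiliary enzymes and the electron acceptors followed the same array. Eci1 and Decr1, which prepare unsaturated chains, had differences of 0.18 and 0.14 log2 that were -0.16 and -0.06 log2 without Rarb-null replicate 3. Etfdh, which passes electrons from the flavoprotein to ubiquinone, read 11.59, 11.52 and 12.94 on Rarb-null arrays, against 11.76, 11.23 and 11.55 on wild-type arrays. Replicates 1 and 2 of Rarb-null lay inside the wild-type range, so the difference of 0.50 log2 (SE 0.38) became 0.04 log2 without replicate 3. A dim second probe set of Etfdh differed by -0.02 log2. Etfa and Etfb, the flavoprotein subunits, differed by 0.20 and 0.16 log2 and were also highest on Rarb-null replicate 3.

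The 3 peroxisomal enzymes went different ways. Ehhadh, the bifunctional hydratase and dehydrogenase, read 11.04, 10.98 and 11.78 on Rarb-null arrays, against 10.76, 10.71 and 10.49 on wild-type arrays. The groups did not overlap, at a difference of 0.62 log2 (SE 0.22, adjusted p = 0.908 in limma), or 0.36 log2 without Rarb-null replicate 3. Acaa1a, a peroxisomal thiolase, was the 1 gene of the 32 with every Rarb-null array below every wild-type array. It read 9.57, 9.47 and 9.49 on Rarb-null arrays, against 9.79, 9.59 and 9.97 on wild-type arrays. It differed by -0.28 log2 (SE 0.13, adjusted p = 0.908 in limma). Its other probe set differed by -0.65 log2 and did not overlap either. Both separations were narrow. The closest values were 9.57 and 9.59 in the representative probe set. In the other one they were 8.16 on Rarb-null replicate 1 and 8.18 on wild-type replicate 2. A further 2 probe sets that name both Acaa1a and Acaa1b differed by -0.15 and -0.24 log2 with overlap. Hsd17b4, the second bifunctional enzyme, averaged 12.55 ± 0.20 in Rarb-null and 12.55 ± 0.39 in wild type. The other probe set of Hsd17b4 differed by -0.24 log2 (SE 0.20) and overlapped.

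Pdk4, Fabp3 and Ucp3 are active in tissues that burn fat. Pdk4, a kinase that shuts down pyruvate entry in favour of fatty acids, read 10.99, 10.40 and 12.21 on Rarb-null arrays, against 10.70, 10.73 and 10.98 on wild-type arrays. Its highest and its lowest array were both Rarb-null, and the difference of 0.39 log2 (SE 0.41) was -0.11 log2 without replicate 3. Ucp3, a mitochondrial carrier of muscle and brown fat, read 8.22, 7.39 and 7.86 on Rarb-null arrays, against 8.82, 7.65 and 8.50 on wild-type arrays. It had the lowest difference of the 32, at -0.50 log2 (95% interval -1.28 to 0.28), which was -0.25 log2 without wild-type replicate 1 and -0.83 log2 without wild-type replicate 2. Rarb-null replicate 3 did not stand out in it, unlike Ucp1.

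Fabp3, a fatty acid binding protein of muscle and brown fat, was read oppositely by its 2 probe sets. The representative one read 7.14, 7.10 and 7.29 on Rarb-null arrays, against 7.10, 7.16 and 7.50 on wild-type arrays, and was nearly flat. The other one read 6.33, 6.08 and 9.88 on Rarb-null arrays, against 6.15, 6.46 and 6.81 on wild-type arrays. Only Rarb-null replicate 3 was high in it, and its difference was 0.96 log2 (SE 0.93, adjusted p = 0.949 in limma), against -0.08 log2 for the representative probe set. Across the set, 17 genes had more than 1 probe set, and 18 of their 26 further probe sets had the sign of the representative one. The 7 genes with a probe set of the opposite sign were Acsl1, Acot2, Cpt1a, Cpt2, Hadh, Etfdh and Fabp3.

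**Figure D4:**
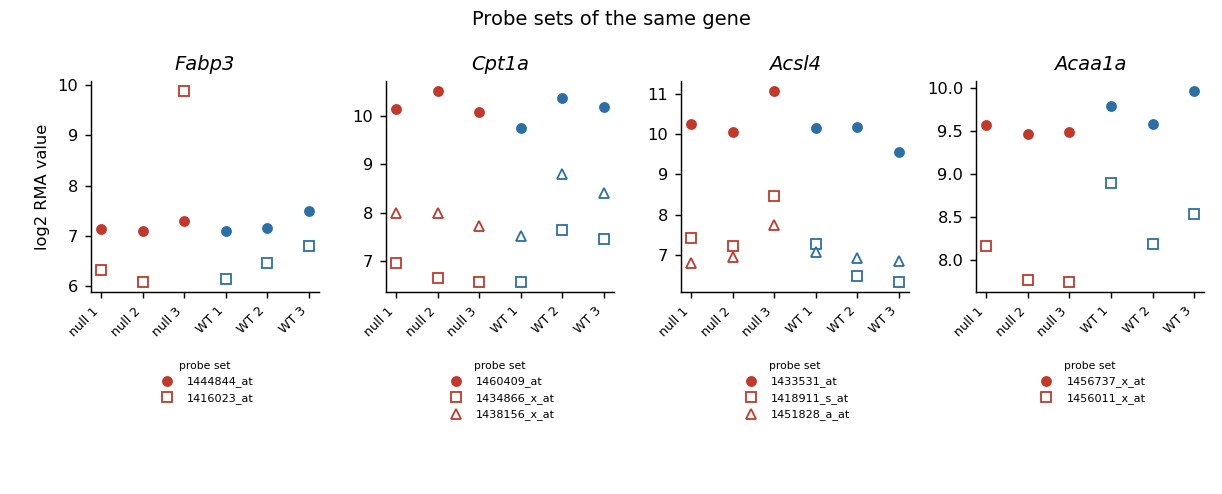
Points are log2 RMA values of each probe set of Fabp3, Cpt1a, Acsl4 and Acaa1a on Rarb-null arrays (null, red) and wild-type arrays (WT, blue), with the representative probe set filled. The second probe set of Fabp3 reads 9.88 on Rarb-null replicate 3 and at most 6.81 elsewhere, and the 2 dimmer probe sets of Cpt1a have lower Rarb-null means.

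**Figure D5:**
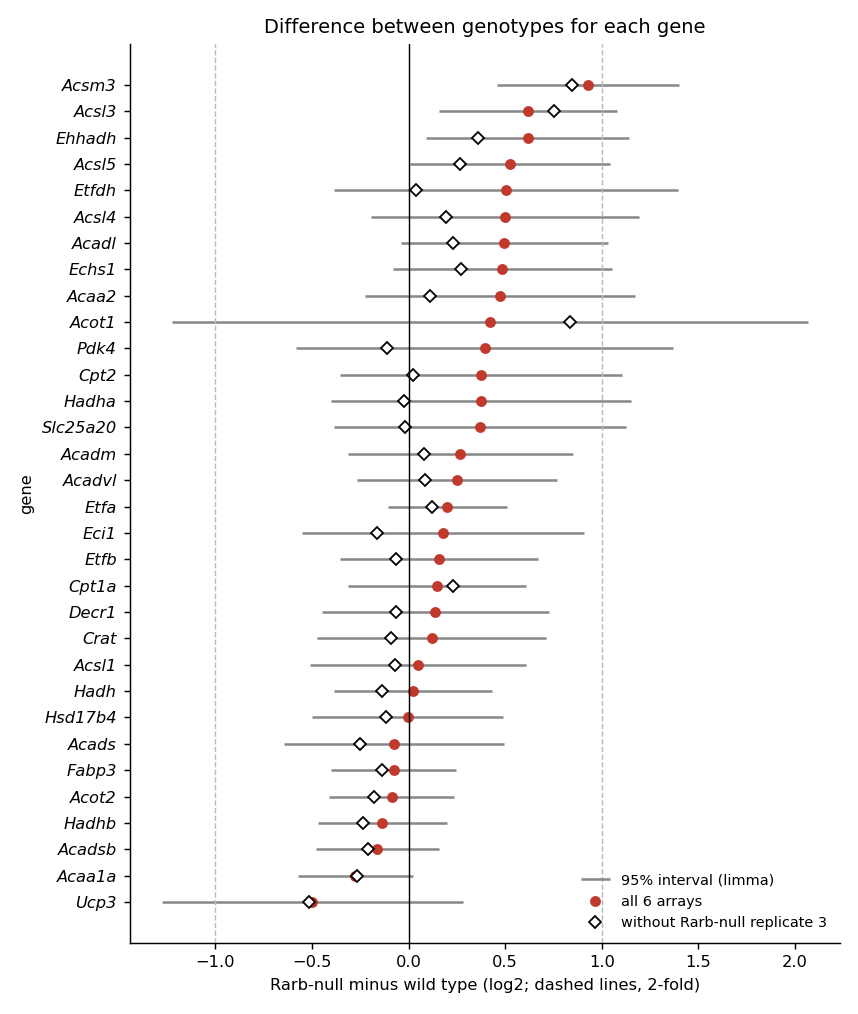
Red points are log2 differences, Rarb-null minus wild type, over all 6 arrays, grey lines their 95% intervals from limma, and open diamonds the differences without Rarb-null replicate 3. With that array left out, Acsm3 and Acsl3 stay at 0.85 and 0.75 log2 while Etfdh, Cpt2, Hadha and Slc25a20 lie between -0.02 and 0.04 log2.

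Many nuclear receptors, among them the PPARs that control fat oxidation genes, bind the hexamer AGGTCA or repeats of it, and the retinoic acid receptors bind such repeats at other spacings. RefSeq promoters on GRCm38.p6, from 250 bases before to 50 after a start site, were at hand for 28 of the 32 genes, as 29 windows. AGGTCA was present on either strand in 5 of the 29 (17.2%), and in 16.3% of 32851 promoters of the same length. Direct repeats of AGGTCA with 1, 2 or 5 bases between them were in 0 of the 29, and in 0.0396%, 0.00913% and 0.00913% of all promoters. The extended form TCAAGGTCA, which contains AGGTCA, was in 0 of 29 and in 0.423% of all. Only exact letters within these windows were searched. For Acsl4, Acsl5, Acaa1a and Cpt1a the window lay inside the outer edge of the RefSeq gene, so the stretch before that edge was not searched.

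The stretches upstream of the start that hold AGGTCA are shown because they are the matches behind that count, each written 5′ to 3′ on the strand of its gene, with the match in capitals, which reads TGACCT where it lies on the opposite strand. They lie at chr7:100472822-100472972 (plus strand, Ucp3), chr7:140116459-140116544 (minus strand, Echs1), chr11:70015470-70015555 (minus strand, Acadvl), chr19:3323167-3323252 (plus strand, Cpt1a) and chr3:153944847-153944893 (minus strand, Acadm).

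Ucp3: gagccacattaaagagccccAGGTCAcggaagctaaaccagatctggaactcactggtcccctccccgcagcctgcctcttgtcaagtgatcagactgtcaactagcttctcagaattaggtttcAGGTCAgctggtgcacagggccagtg
Echs1: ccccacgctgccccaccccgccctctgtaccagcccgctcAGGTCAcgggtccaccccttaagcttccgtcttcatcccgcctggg
Acadvl: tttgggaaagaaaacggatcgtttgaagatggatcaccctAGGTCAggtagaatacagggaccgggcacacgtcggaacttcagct
Cpt1a: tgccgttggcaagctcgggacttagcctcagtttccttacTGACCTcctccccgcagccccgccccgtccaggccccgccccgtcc
Acadm: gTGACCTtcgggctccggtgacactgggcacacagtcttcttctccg

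The 5 genes with a match had values on both sides of 0, from -0.50 log2 for Ucp3 to 0.48 log2 for Echs1. Acsm3, Acsl3, Acsl5, Acadl, Ehhadh and Acaa1a, the genes whose genotypes did not overlap, had no exact match in these windows.

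Related pathways were described by lists of genes outside the 32, and 0 genes of these lists passed in limma. Among 28 further genes of beta-oxidation and its side branches, 13 had a higher and 15 a lower Rarb-null mean, the median difference was -0.02 log2, and 0 had an unadjusted p under 0.05. Decr2, a peroxisomal reductase for unsaturated chains, averaged 8.69 ± 0.31 in Rarb-null and 8.25 ± 0.36 in wild type, and Echdc2 9.06 ± 0.03 in Rarb-null and 9.22 ± 0.06 in wild type. Among 25 further genes of uptake and activation, 9 were higher and 16 lower, with a median of -0.06 log2 and 0 at an unadjusted p under 0.05. Fabp4, the fatty acid binding protein of fat cells, averaged 14.48 ± 0.07 in Rarb-null and 14.73 ± 0.20 in wild type, and Fabp7 5.49 ± 0.18 in Rarb-null and 5.87 ± 0.29 in wild type.

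The tricarboxylic acid cycle, which takes up the acetyl-CoA made by beta-oxidation, resembled the 32 genes. The list of 22 genes also holds Pdha1, Pdhb, Dlat and Pcx, which bring pyruvate into the cycle and are not cycle enzymes. Of the 22, 20 averaged higher in Rarb-null at a median difference of 0.21 log2. On Rarb-null replicate 3, 17 of them were highest, and on wild-type replicate 2, 15 were lowest. Without Rarb-null replicate 3 the median was 0.03 log2, and 0 had an unadjusted p under 0.05. Idh2 read 12.48, 12.54 and 12.51 on Rarb-null arrays, against 12.39, 12.29 and 12.19 on wild-type arrays, without overlap. Sdha, a subunit of succinate dehydrogenase, averaged 13.57 ± 0.20 in Rarb-null and 13.25 ± 0.20 in wild type.

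Among 27 regulators of fatty acid oxidation, 14 were higher and 13 lower, with a median of 0.05 log2 and 2 at an unadjusted p under 0.05. These were Esrrg, an orphan receptor that drives oxidative genes, at 8.25 ± 0.15 in Rarb-null and 7.41 ± 0.37 in wild type, and the retinoid X receptor gene Rxrb, at 10.01 ± 0.09 in Rarb-null and 10.28 ± 0.10 in wild type. Ppara, the receptor best known for control of this pathway and named after its values were seen, read 8.27, 7.77 and 9.75 on Rarb-null arrays, against 7.94, 7.49 and 8.55 on wild-type arrays. It was thus highest on Rarb-null replicate 3 and lowest on wild-type replicate 2, and overlapped. Of 8 ketone body genes 4 were higher and 4 lower, with Aacs at 0.67 log2 and Oxct2a at -0.15 log2. Of 19 peroxisome genes 9 were higher and 10 lower, with Pex6 at 0.31 log2. At an unadjusted p under 0.05 in limma, 1 of the 19 was higher, which was Pex6, and 2 were lower. Over all genes, 1.9% were called higher and 3.41% lower.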

How the data were processed

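Total RNA was turned into biotin-labelled cRNA and hybridised to 6 arrays, per the labels' protocols. Per the submitters' processing notes, the deposited log2 values come from RMA, a method that includes quantile normalization, so a shift shared by most genes would be removed. They ran from 3.25 to 15.30 and carry no detection calls. Precision depends on the small number of arrays. The authors' other table gives log2 group means, their log2 difference and gene symbols, per the file headers. The score in that deposited table is a SAM d-score calculated by the authors, per the file headers, and was not used. The method behind the authors' deposited p-value is not stated in those headers. Here, 45037 probe sets, without 64 controls, were fitted with limma 3.58.1 in R 4.3.3 (lmFit and eBayes, no covariates). P-values are for both directions and were adjusted over all probe sets by Benjamini-Hochberg, at a threshold of 0.05. The procedure was tested on simulated data, where it missed part of the changed probe sets, and more of those with the smaller change. Simulated noise was independent between probe sets, whereas lists such as cell cycle genes moved together on these arrays. The simulation therefore does not show what could be detected here. For list genes and for all genes, symbols were updated through RefSeq names of GRCm38.p6, with 8412 probe sets changed and 3726 unmatched. Every one of the 32 genes is named. Of each related pathway list the 2 genes with the smallest p are named, except 1 that is not reported here, and other genes, markers included, were picked after their values were seen. The genes, lists and tests were chosen with earlier results of these data known, and the promoter motifs were chosen later still. Python 3.11.15 and matplotlib 3.10.9 drew the figures. Other settings tried were quantile normalization once more, centring on array medians, a floor of 6 on the mean, a trended robust prior, array weights, the replicate number as a block, averaging a gene's probe sets, and leaving out each array.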

Additional observations from a re-analysis of the deposited data

How the results depend on the processing

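No gene of the 32 passed under 13 other settings, and their smallest adjusted p in limma was 0.349, of Acsm3 without wild-type replicate 2. With 1 array left out, the count of probe sets that passed ran from 0 to 1, the count of the 32 that passed was 0 throughout, the count with a higher Rarb-null mean ran from 15 to 27, and their median difference ran from -0.02 to 0.36 log2. The lowest of both belong to the fit without Rarb-null replicate 3. Genes that did not overlap with Rarb-null higher then numbered 5 to 9, with 9 without Rarb-null replicate 2 (6.38% of all genes) and 8 without wild-type replicate 1 (8.83%), and with Rarb-null lower 1 to 3, with 3 without Rarb-null replicate 3 (14.5% of all genes) and 2 without wild-type replicate 2 (15.5%). The 1 probe set passed without Rarb-null replicate 2. Signs turned for 15 genes under at least 1 of them. With 1 array left out, Acads ran from -0.31 to 0.10 log2, Hsd17b4 from -0.22 to 0.16, Acot2 from -0.18 to 0.0081, Hadha from -0.023 to 0.68, Hadh from -0.14 to 0.14, Eci1 from -0.16 to 0.45, Decr1 from -0.086 to 0.30, Slc25a20 from -0.016 to 0.59, Crat from -0.090 to 0.31, Etfb from -0.065 to 0.30, Acsl1 from -0.21 to 0.23, Pdk4 from -0.11 to 0.79, Cpt1a from -0.029 to 0.28, Acot1 from -0.051 to 1.24 and Fabp3 from -0.15 to 0.045. Hadh was -0.0026 after median centring and -0.053 with array weights, and with the mean of all probe sets Cpt1a was -0.23 and Fabp3 0.44. The cause was not tested. With the replicate number as a block 0 probe sets and 0 of the 32 passed, with a smallest adjusted p of 0.642. Deviations of arrays with the same number correlated at -0.20, 0.45 and 0.29 across probe sets, and those with other numbers from -0.54 to 0.38. With 3 arrays a group, these values cannot show whether the numbers pair the arrays. After the data were seen, Rarb-null replicate 3 and wild-type replicate 2 were left out together. The remaining arrays, 2 of each genotype, differ in cell cycle genes, which were high on both Rarb-null and low on both wild-type arrays. Median deviations of epithelial markers were 0.23 and 0.34 log2 on these Rarb-null arrays, against -0.14 and -0.61 on these wild-type arrays. For fibroblast markers they were 0.19 and 0.14, against -0.37 and -0.05. White fat markers went the other way, at -0.11 and -0.03 against 0.19 and 0.19, as did brown fat markers. Genotype and cell content, cell cycle content included, therefore cannot be told apart in the remaining arrays. Then 469 probe sets passed (1.04%), and of the 32 only Acot1, at 1.66 log2 (adjusted p = 0.0107 in limma). The arrays left out held its highest wild-type value, 11.48, and its lowest Rarb-null value, 9.42. A higher mean was left in 11 (41.2% of all genes), and the median was -0.14 log2 (-0.05 over all genes). Of the 32, 13 did not overlap as lower (28.2% of all genes) and 6 as higher (20.1% of all genes). Signs turned for Acadm (-0.14), Acadvl (-0.095), Hadha (-0.092), Hadh (-0.24), Eci1 (-0.33), Decr1 (-0.29), Cpt2 (-0.15), Slc25a20 (-0.086), Crat (-0.29), Etfb (-0.20), Etfdh (-0.10), Acsl1 (-0.32) and Pdk4 (-0.15). With 3 arrays a group and no detection calls, small differences could not be resolved in dim or in bright probe sets. Over all 6 arrays, the largest difference of the 32, 0.93 log2 for Acsm3, did not pass either.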
